A study of Mus musculus with 8 samples.

Results

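The genes described here encode contractile and cytoskeletal proteins of the myometrium, the smooth muscle wall of the uterus. They are Acta2, Actg2, Myh11, Cnn1, Tagln, Smtn, Lmod1, Synm, Synpo2 and Des. They were chosen by name. Each of the 10 was matched through its symbol in the platform annotation and was measured by 1 probe set, out of 19505 genes on the array.

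Expression was measured on arrays in the uterus of wildtype mice of the inbred strain C57BL/6J, at day 4.5 of pseudopregnancy. The exposed group (ecig in the labels) comprised 4 mice that inhaled e-cigarette aerosol in a whole-body chamber, with 2 puffs per minute over 3 hours each day. The liquid was propylene glycol and vegetable glycerin at 55:45 with 24 mg/mL nicotine and no flavouring, heated at 245 °C, and exposure covered 4 weeks of 5 days before mating and every day after the plug. The 4 mice of the sham group received room air. All 8 females were mated to vasectomised males, so neither group carried embryos, and each array holds the RNA of 1 mouse. Values are log2 expression, so a difference of 1 is a doubling, and means are given ± SD over 4 mice. RNA came from the uterus with all its layers, and fewer smooth muscle cells and less RNA per smooth muscle cell cannot be told apart.

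Smooth muscle shortens when actin thin filaments slide along myosin thick filaments. Calponin, transgelin, smoothelin and leiomodin bind the thin filaments, which end in dense bodies that intermediate filaments of desmin and synemin tie together. Many of these genes are known targets of serum response factor (SRF), which binds the CArG box. In pregnancy the myometrium first stays quiet and proliferates, and contracts at birth.

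The 10 genes each had a lower mean in exposed than in sham uteri, by 0.11 to 0.50 on the log2 scale, and none passed limma's test over the whole array. Exposed mouse 2 had the lowest value of all 8 mice for 10 of the 10 genes. Sham mouse 4 had the lowest sham value for 8 of them. How often these mice were lowest over all probe sets was not counted. Over the whole array, exposed mice 2 and 4 were least like the others. Their mean correlations with the other arrays were 0.9816 and 0.9768, against 0.9858 to 0.9875 for the rest. Synpo2 alone among the 10 had its 4 exposed values below its 4 sham values.

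**Figure D1:**
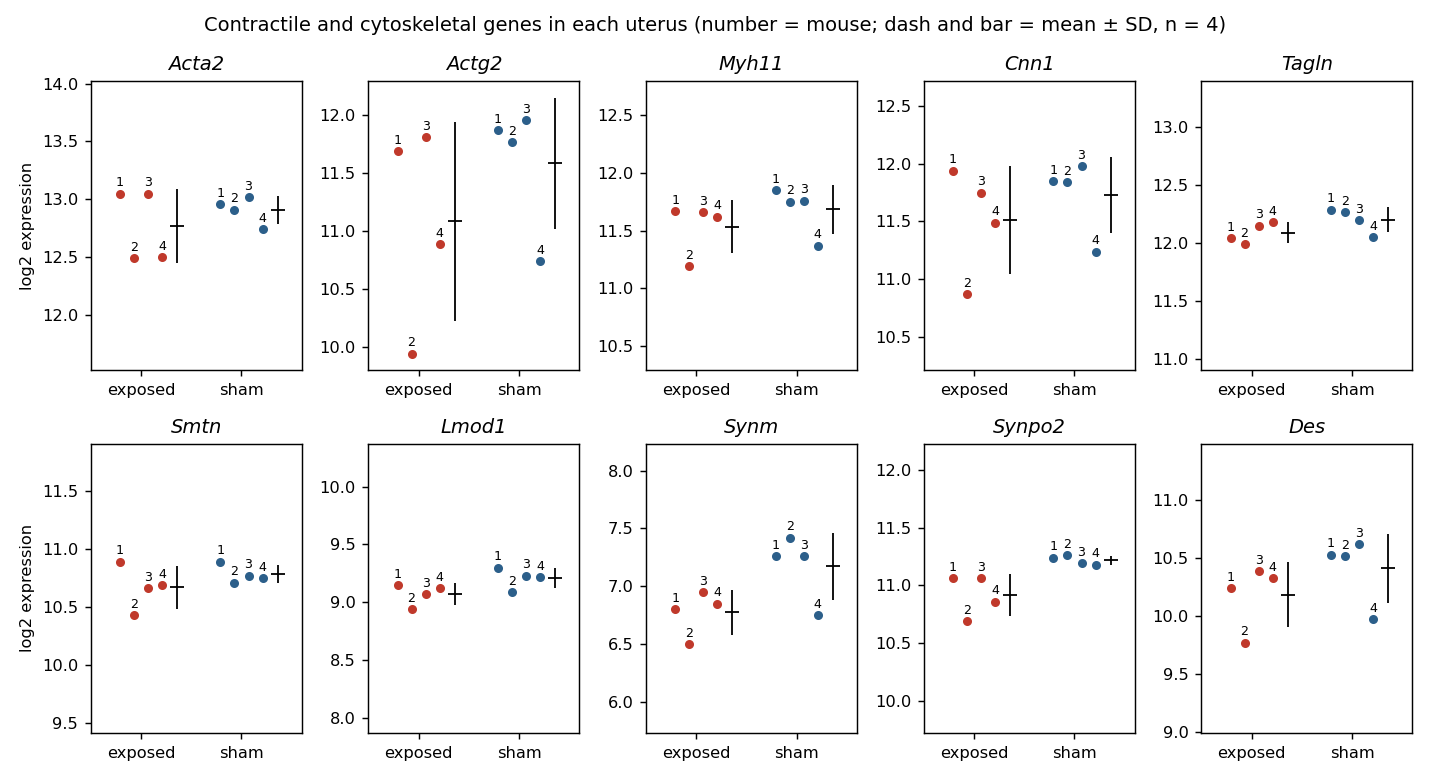
Log2 expression of each of the 10 genes (vertical axes, each spanning the same number of log2 units) in the 4 exposed mice (red, left) and the 4 sham mice (blue, right), with the mouse number above each point and the mean ± SD at the side. Exposed mouse 2 is the lowest point of every panel, Actg2 spreads most, and only Synpo2 separates the groups.

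Acta2 encodes smooth muscle alpha-actin, the thin filament actin shared by myometrium and vessel walls. It stood at 13.05, 12.49, 13.05 and 12.50 in exposed mice 1 to 4, against 12.96, 12.91, 13.02 and 12.74 in sham mice 1 to 4. Exposed mice 1 and 3 were the highest of the 8 and exposed mice 2 and 4 the lowest, so the exposed values lay on both sides of the sham values. The means were 12.77 ± 0.32 in exposed and 12.91 ± 0.12 in sham mice, a difference of -0.13 (95% interval -0.47 to 0.20). It was -0.039 without exposed mouse 2 and -0.044 without exposed mouse 4, and -0.227 without either exposed mouse 1 or exposed mouse 3.

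The 300 bases around the annotated start of Acta2 and of Synm are printed because they were the promoter windows, among those of the 10 genes, that held a CArG-like box. Such a box is a CArG box in which at most 1 of the 6 central bases is C or G. It reads as the same pattern on both strands, and no other motif was searched. Sequences are RefSeq's for GRCm38.p6, from 250 bases before to 50 after the start, on the strand of the gene, with the boxes in capitals. The Acta2 window lies at chr19:34255324-34255623 on the minus strand and the Synm window at chr7:67759693-67759992 on the minus strand.
Acta2: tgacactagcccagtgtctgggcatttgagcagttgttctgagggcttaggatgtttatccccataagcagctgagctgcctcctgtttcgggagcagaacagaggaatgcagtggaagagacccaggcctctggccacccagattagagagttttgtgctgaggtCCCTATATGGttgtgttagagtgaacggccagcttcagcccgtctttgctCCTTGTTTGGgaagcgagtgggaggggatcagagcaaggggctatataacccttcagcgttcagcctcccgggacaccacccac
Synm: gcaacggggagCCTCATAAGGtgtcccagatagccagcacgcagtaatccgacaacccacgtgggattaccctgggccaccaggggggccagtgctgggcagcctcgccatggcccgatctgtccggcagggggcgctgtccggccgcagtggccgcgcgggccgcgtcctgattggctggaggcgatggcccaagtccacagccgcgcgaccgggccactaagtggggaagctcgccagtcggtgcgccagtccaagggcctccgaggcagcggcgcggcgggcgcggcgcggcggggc

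The Acta2 boxes begin 84 and 34 bases before the start and the Synm box 239 bases before it. Windows were matched for 7 of the 10 genes, all but Actg2, Myh11 and Tagln. CArG-like boxes were found in 2 of these 7 windows, against 9.98% of all 32851 windows. The CArG box itself was in 0 of the 7, against 1.63% of all windows. A match is a run of letters and not a measured site, and other parts of these genes were not searched.

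Actg2 encodes the gamma-actin of enteric and uterine smooth muscle. Its values were 11.69, 9.94, 11.81 and 10.89 in exposed mice 1 to 4 and 11.87, 11.77, 11.96 and 10.74 in sham mice 1 to 4. Exposed mouse 2 was lowest, followed by sham mouse 4 and exposed mouse 4, while the other 5 mice lay between 11.69 and 11.96. Across the 8 mice Actg2 spanned 2.02 log2 units, or 4.06-fold, a wider span than that of 98.9% of all probe sets. The exposed mean was 11.08 ± 0.86 and the sham mean 11.59 ± 0.57, which gave the largest difference of the 10 genes and the widest interval, -0.50 with a 95% interval of -1.41 to 0.40. Without exposed mouse 2 the difference was -0.123, and without sham mouse 4 it was -0.786.

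Myh11 encodes the smooth muscle myosin heavy chain, the motor of the thick filament. It was 11.67, 11.19, 11.66 and 11.62 in exposed mice 1 to 4, and 11.85, 11.75, 11.76 and 11.37 in sham mice 1 to 4. In both groups 3 mice lay close together and 1 lay lower, exposed mouse 2 and sham mouse 4. Means of 11.53 ± 0.23 in exposed and 11.68 ± 0.21 in sham mice differed by -0.15 (95% interval -0.46 to 0.17). The difference was -0.029 without exposed mouse 2, -0.249 without sham mouse 4 and -0.090 without sham mouse 1.

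Among the proteins that bind the thin filament, Cnn1, the calponin of differentiated smooth muscle, varied most. Its values were 11.94, 10.87, 11.75 and 11.49 in exposed mice 1 to 4, against 11.85, 11.84, 11.98 and 11.24 in sham mice 1 to 4. The groups overlapped over most of their range, with the same low mice as Actg2. The difference was -0.21 (95% interval -0.73 to 0.30), and it was 0.001 without exposed mouse 2. Without sham mouse 4 it was -0.374, without exposed mouse 1 -0.356 and without sham mouse 3 -0.131.

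Tagln, which encodes transgelin, an actin cross-linking protein, was the steadiest of the 10 genes over the 8 mice, with a span of 0.30 log2 units. It was 12.04, 11.99, 12.15 and 12.18 in exposed mice 1 to 4 and 12.29, 12.27, 12.20 and 12.05 in sham mice 1 to 4. Sham mouse 4 lay among the exposed mice and the other 3 sham mice were above all 4 exposed mice. The means differed by -0.11 (95% interval -0.31 to 0.09).

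Smtn, which encodes smoothelin, found in contractile smooth muscle, was 10.89, 10.43, 10.66 and 10.69 in exposed mice 1 to 4, against 10.89, 10.71, 10.77 and 10.75 in sham mice 1 to 4. Exposed mouse 1 and sham mouse 1 were the highest, alike to 2 decimals, and the other 3 exposed mice were below all sham mice. Lmod1, which encodes leiomodin 1, a protein that starts actin filaments in smooth muscle, was 9.15, 8.94, 9.07 and 9.12 in exposed mice 1 to 4 and 9.30, 9.09, 9.23 and 9.22 in sham mice 1 to 4. Sham mouse 2 lay among the exposed mice, and sham mouse 4 was not low in either gene. The differences were -0.11 (95% interval -0.35 to 0.13) for Smtn and -0.14 (95% interval -0.34 to 0.05) for Lmod1. For Smtn it was -0.032 without exposed mouse 2 and -0.187 without exposed mouse 1.

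Des encodes desmin, the main intermediate filament protein of muscle. It was 10.24, 9.77, 10.39 and 10.33 in exposed mice 1 to 4, and 10.53, 10.52, 10.62 and 9.97 in sham mice 1 to 4. All exposed values were below those of sham mice 1 to 3, and sham mouse 4 was second lowest of the 8. The means were 10.18 ± 0.28 in exposed and 10.41 ± 0.30 in sham mice, a difference of -0.23 (95% interval -0.62 to 0.16) that was -0.091 without exposed mouse 2 and -0.376 without sham mouse 4.

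Synm encodes synemin, a large intermediate filament protein that assembles with desmin and anchors it to membrane and dense body complexes. Its signal was near the array median of 7.08, with 6.80, 6.50, 6.95 and 6.85 in exposed mice 1 to 4, against 7.26, 7.42, 7.26 and 6.75 in sham mice 1 to 4. All exposed values were below those of sham mice 1 to 3, as for Des, and sham mouse 4 lay among the exposed mice. Means of 6.77 ± 0.19 in exposed and 7.17 ± 0.29 in sham mice differed by -0.40 (SE 0.15, 95% interval -0.74 to -0.06). The difference stayed between -0.541 and -0.308 when any 1 mouse was left out. Its unadjusted limma p was 0.079 without exposed mouse 2 and 0.064, 0.082 and 0.064 without sham mouse 1, 2 or 3. It was under 0.05 without any of the remaining mice.

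Synpo2 encodes synaptopodin 2 (myopodin), an actin-bundling protein of muscle Z-discs and dense bodies. It was 11.06, 10.69, 11.06 and 10.86 in exposed mice 1 to 4, and 11.24, 11.26, 11.19 and 11.18 in sham mice 1 to 4. Each exposed mouse was below each sham mouse, and sham mouse 4, low in Actg2, Cnn1, Synm and Des, was close to the other sham mice here. Means of 10.92 ± 0.18 in exposed and 11.22 ± 0.04 in sham mice differed by -0.30 (SE 0.10, 95% interval -0.52 to -0.07), or 1.23-fold. An exact two-sided permutation test of this single gene gave p = 0.0286, the smallest that 4 against 4 mice allow. Any gene without overlap gets this p, so it adds nothing to the lack of overlap. Over the 10 genes, Synpo2 was the 1 gene without overlap, against 1.35% of all probe sets with the 4 exposed values below the 4 sham values and 1.38% with them above.

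**Figure D2:**
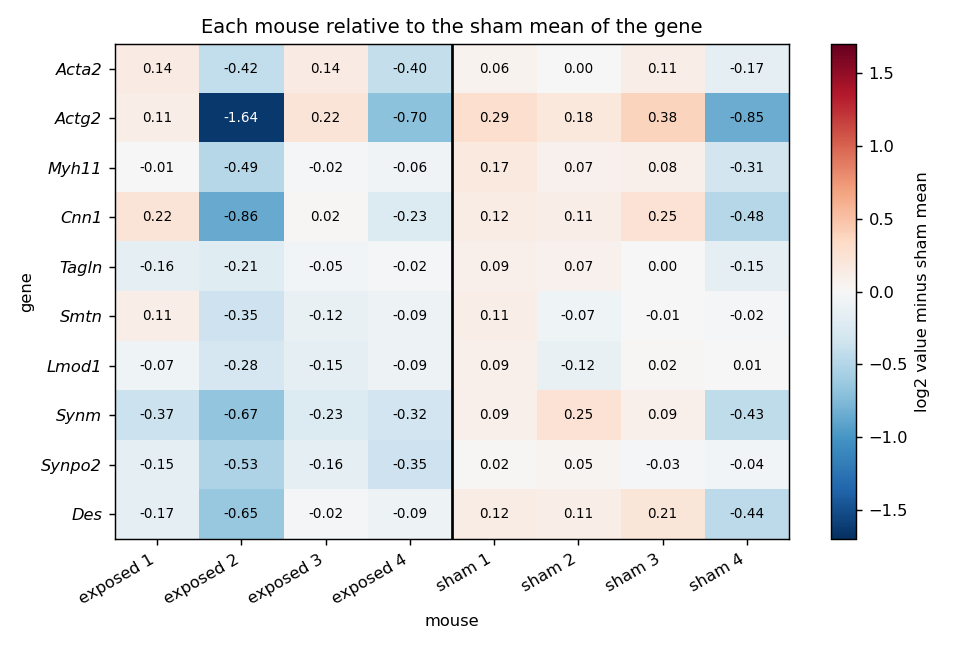
Log2 value of each gene (rows) in each mouse (columns, exposed left of the line and sham right of it) minus the mean of the 4 sham mice. The column of exposed mouse 2 is negative throughout (-0.21 for Tagln to -1.64 for Actg2), and sham mouse 4 is at -0.85 for Actg2, -0.48 for Cnn1 and -0.44 for Des.

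Fitted over all 22206 probe sets with limma and adjusted by the Benjamini-Hochberg method, 0 of the 10 genes and 0 probe sets of the array passed an adjusted p of 0.05, a background of 0% called. Adjusted p ran from 0.838 for Lmod1, Synm and Synpo2 to 0.886 for Acta2. At an unadjusted limma p under 0.05, Synm (0.0269) and Synpo2 (0.0151) were 2 of the 10, both lower, against 2.5% of all probe sets in that direction and 2.91% in the other. Over the array 1203 probe sets, 5.42%, reached that level in either direction. The exact permutation test put 607 probe sets past it, which are those without overlap. Its smallest possible p, 0.0286, cannot pass adjustment over the array unless most probe sets reach it. Its count of 0 after adjustment was therefore set in advance. For 8 of the 10 genes the 95% interval covered 0.

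The median difference of the 10 genes was -0.18, against 0.0014 for all probe sets. All 10 had a lower exposed mean, as had 49.5% of all probe sets and 52.7% of the brightest 10% of them. The 10 genes share the same 8 mice and are not replicates of the exposure. Without exposed mouse 2 the median was -0.083 and 9 of 10 exposed means were lower. With exposed mice 2 and 4 both left out, a setting chosen after the values were seen, the median was -0.053 and 7 of 10 were lower, while Acta2, Actg2 and Cnn1 were higher by 0.144, 0.165 and 0.119. Leaving out exposed mouse 2 and sham mouse 4 together, also chosen afterwards, gave a median of -0.146 with 10 of 10 lower.

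**Figure D3:**
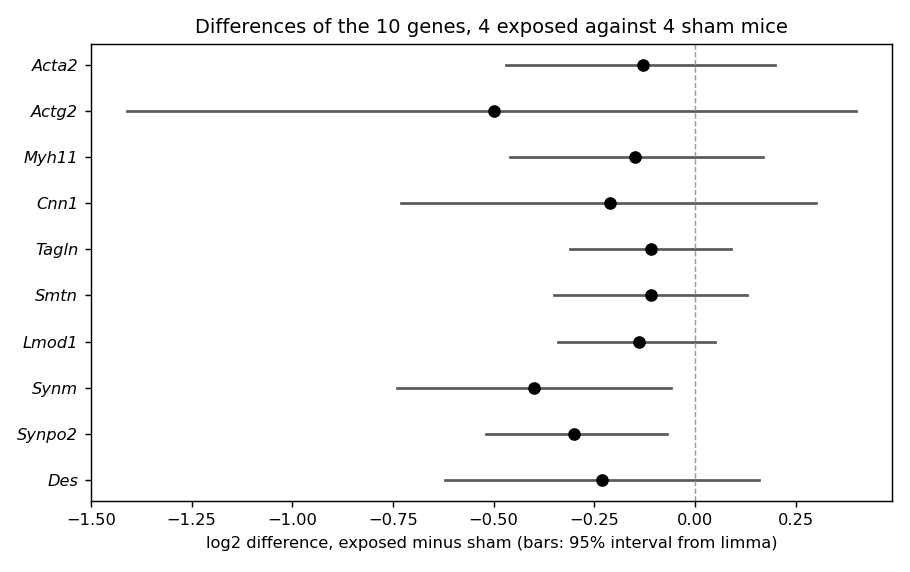
Log2 difference, exposed minus sham, of each of the 10 genes (points) with its 95% interval from limma (bars). All points lie left of 0, and the intervals of Synm and Synpo2 alone do not reach it.

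Relative to the sham mean, the average over the 10 genes was -0.04, -0.61, -0.03 and -0.24 in exposed mice 1 to 4, and 0.11, 0.06, 0.11 and -0.29 in sham mice 1 to 4. Exposed mice 1 and 3 thus lay just below the sham mean, and sham mouse 4 lay below 3 of the 4 exposed mice. Exposed mouse 2 was below all 4 sham mice for 10 genes, exposed mice 3 and 4 for 3 genes each and exposed mouse 1 for 2. For 7 of the 10 genes the exposed mice had the larger SD, which was so for 65.8% of all probe sets. The ratio of the exposed to the sham SD was highest for Synpo2 (4.36) and lowest for Synm (0.654).

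The other genes of contraction were read from 7 lists, and 0 of their members passed the adjusted test in either direction. Counts at an unadjusted limma p under 0.05 stand beside an array share of 2.5% lower and 2.91% higher, and counts without overlap beside 1.35% below and 1.38% above. Unadjusted counts were 4 lower for thick and thin filament genes, 2 lower for myosin phosphorylation, 1 lower around SRF, 2 lower and 1 higher for the dense plaque list, 1 lower for intermediate filament partners, 2 lower and 1 higher for excitation and 1 lower for the other actins. In the list of other thick and thin filament genes, 14 of 17 had lower and 3 higher exposed means, with a median difference of -0.18. The 3 of smallest p were the leiomodin Lmod2, dim on every array, and the tropomyosins Tpm3 and Tpm4, which lie along the actin filament. Tpm3 was 11.11, 10.95, 11.24 and 10.92 in exposed mice 1 to 4 against 11.28, 11.41, 11.15 and 11.43 in sham mice 1 to 4, a difference of -0.27 with 1 sham value among the exposed ones. Tpm4 had a difference of -0.35, and its low exposed values were those of mice 2 and 4 (10.04 and 10.01). The 2 genes without overlap were Lmod2 and Tmod3, a tropomodulin that caps actin filaments (9.93 to 10.14 in exposed and 10.18 to 10.29 in sham mice, named after its values were seen). Myl9, the regulatory light chain that is phosphorylated to start contraction, differed by -0.08 (95% interval -0.39 to 0.22).

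For the switch that sets phosphorylation of the light chain, 14 of 16 listed genes were measured, 10 lower and 4 higher, with a median of -0.08. Mylk, the myosin light chain kinase, was 11.55 ± 0.16 in exposed and 11.68 ± 0.13 in sham mice. Ppp1r12a, the targeting subunit of the phosphatase that opposes it, was 10.79, 10.62, 10.73 and 10.80 in exposed mice 1 to 4, against 10.94, 10.97, 10.86 and 10.98 in sham mice 1 to 4, without overlap (difference -0.20, SE 0.08). Calm2, a calmodulin gene, was the other gene of the list without overlap (11.28 to 11.46 in exposed and 11.48 to 11.57 in sham mice, named after its values were seen). Prkg1, the cGMP-dependent kinase that relaxes smooth muscle, had a higher mean in exposed mice, by 0.30 (95% interval -0.01 to 0.62).

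Of 12 genes around SRF and its coactivator myocardin, 8 had lower and 4 higher means, with a median of -0.05. Srf itself was 9.08, 8.83, 9.05 and 8.42 in exposed mice 1 to 4, against 9.24, 9.05, 9.20 and 8.87 in sham mice 1 to 4. Exposed mouse 4 was its lowest mouse, and exposed mouse 2, lowest for the 10 contractile genes, was next and close to sham mouse 4. Myocd, which encodes myocardin, was 7.45 ± 0.14 in exposed and 7.64 ± 0.22 in sham mice, with sham mouse 4 highest at 7.95. Mrtfb, a related coactivator, had a higher exposed mean, by 0.16 (95% interval -0.06 to 0.39). Csrp2, a LIM protein of smooth muscle, was the 1 gene of this list without overlap, at 8.30 to 8.44 in exposed and 8.54 to 8.63 in sham mice.

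In the list of dense plaque and dystrophin complex genes, which join the filaments to the membrane, 13 of 21 measured genes were lower and 8 higher. Vcl, which encodes vinculin, was 9.42, 9.03, 9.25 and 8.86 in exposed mice 1 to 4 and 9.61, 9.51, 9.48 and 9.46 in sham mice 1 to 4, without overlap and with a difference of -0.38 (SE 0.12). Itgb1, the beta-1 integrin, was also without overlap (11.37 to 11.48 in exposed and 11.49 to 11.62 in sham mice, named after its values were seen). Itga7, an integrin of muscle that binds laminin, differed by -0.36 (SE 0.12), and exposed mouse 1 at 7.42 was the 1 exposed value above the lowest sham value, 7.39. Sgce, a sarcoglycan of the dystrophin complex, went the other way with a difference of 0.27 (SE 0.10). Among partners of intermediate filaments, 4 of 5 measured genes were lower and 1 higher, and Lmna, which encodes nuclear lamin A, differed by -0.42, its low values being those of exposed mice 2 and 4 (both 8.42). The difference was -0.28 for Nes, which encodes nestin, and -0.18 for Cryab, a small heat shock protein that binds desmin, and in both the groups overlapped.

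Genes of excitation and of readiness for labour did not share a direction, with 7 of 16 measured genes lower and 9 higher and a median of 0.05. Oxtr, the oxytocin receptor, was 7.41, 8.42, 8.20 and 8.29 in exposed mice 1 to 4, against 7.48, 7.70, 7.27 and 7.90 in sham mice 1 to 4. Exposed mice 2, 3 and 4 were above all sham mice and exposed mouse 1 was among them, which gave a difference of 0.49 (95% interval 0.01 to 0.98). Exposed mouse 2 was thus highest for Oxtr and lowest for each of the 10 contractile genes. Gja1, the connexin that couples myometrial cells, was 9.94 ± 0.45 in exposed and 9.91 ± 0.18 in sham mice. Atp2a2, the calcium pump of the sarcoplasmic reticulum, was 10.77, 10.66, 10.67 and 10.54 in exposed mice 1 to 4 and 10.93, 10.97, 10.89 and 10.97 in sham mice 1 to 4, without overlap (difference -0.28, SE 0.08). Its limma adjusted p was 0.838. Jph2, a junctophilin, differed by -0.25 (SE 0.11).

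**Figure D4:**
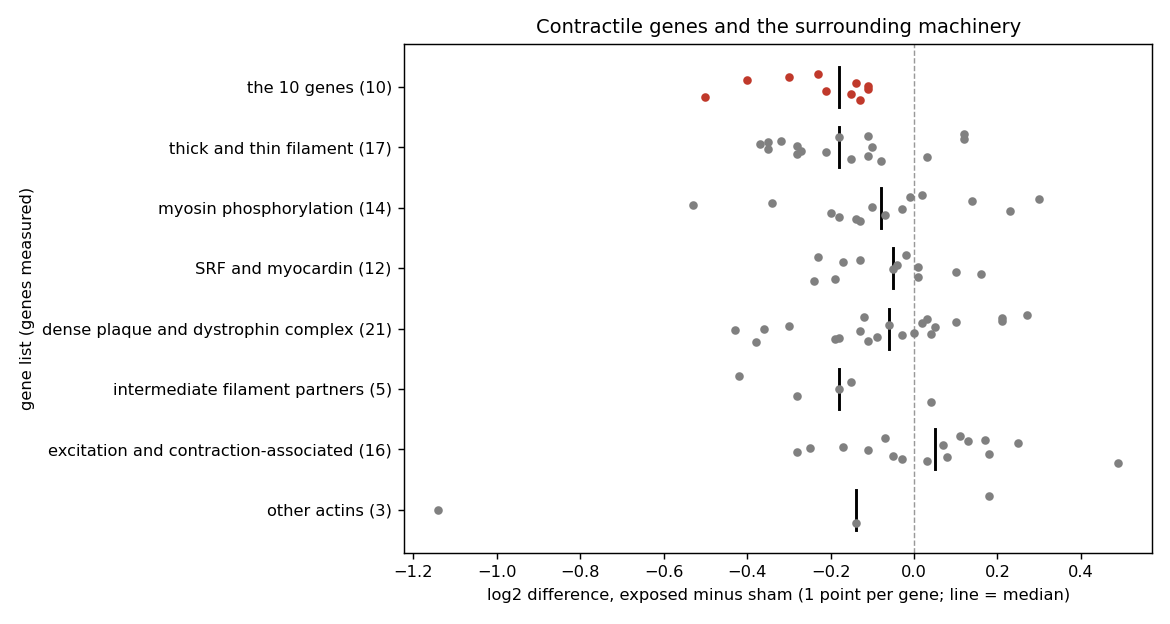
Log2 difference, exposed minus sham, of every measured gene (points) of the 10 contractile genes (red) and the 7 other lists (grey), with the median of each list (lines). Medians run from -0.18 for the 10 genes, the thick and thin filament list and the intermediate filament partners to 0.05 for the excitation list, and the point at -1.14 is Acta1.

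The actins outside the 10 genes were Actb, the cytoplasmic beta-actin, and the striated muscle actins Acta1 and Actc1. Acta1 was 9.96, 7.29, 8.48 and 7.45 in exposed mice 1 to 4, against 9.57, 9.21, 9.65 and 9.31 in sham mice 1 to 4. Exposed mouse 1 was the highest of the 8 mice and the other 3 exposed mice were below all sham mice, a difference of -1.14 (95% interval -2.23 to -0.06). Actc1 lay between 7.46 and 7.66 in exposed mice and between 7.27 and 7.49 in sham mice. Actb was 12.72 ± 0.17 in exposed and 12.87 ± 0.06 in sham mice. The muscle actins are nearly identical proteins, and how far their probes bind each other's transcripts was not tested.

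Genes whose level followed the average of the 10 genes most closely over the 8 mice were sought among 16886 genes outside every list. The 5 most alike were S100a10, the partner of annexin A2 (Pearson r = 0.991), Ptf1a, dim on every array (0.980), Sh3bgr (0.980), Hopx, a homeodomain-only protein (0.978), and Dlat, a subunit of the pyruvate dehydrogenase complex (0.976). The 3 most opposed were Zmynd15 (-0.984), Rcan2, a regulator of calcineurin (-0.982), and Scai, a nuclear regulator of transcription (-0.980). These coefficients describe 8 arrays, and they are the extremes of many genes. S100a10 was 10.53, 9.54, 10.48 and 10.08 in exposed mice 1 to 4 and 10.67, 10.70, 10.62 and 10.10 in sham mice 1 to 4. Like Actg2, it was low in exposed mouse 2, exposed mouse 4 and sham mouse 4.

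Markers of uterine tissue and of its other cells give the setting of these values. Of the 10 contractile genes, 9 were above the array median in all 8 mice, the exception being Synm, and so were 6 of the 6 uterine markers (Esr1, Pgr, Hoxa10, Hoxa11, Hand2 and Foxa2). The mean over 8 markers of pericytes and vascular smooth muscle was 8.02 to 8.10 in exposed and 7.95 to 8.11 in sham mice, and exposed mouse 2 stood at -0.01 from the sham mean. Its markers went apart in that mouse, with Rgs5 at 8.55 and Notch3 at 7.02 below their sham means of 9.16 and 7.69, and Kcnj8 at 8.68 and Pdgfrb at 9.95 above their sham means of 7.93 and 9.32. Striated muscle markers, 8 of 8 measured, averaged 6.42 to 6.77 in exposed and 6.66 to 6.77 in sham mice. These markers went both ways, with 4 lower and 4 higher exposed means. Tnnt2 was 5.63 and 5.99 in exposed mice 2 and 4, against a sham mean of 7.12. Tnnt3 differed by -0.56, Ckm by 0.07 and Mb by 0.14.

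Some other lists moved with exposed mouse 2 and some did not. In that mouse the mean of 6 stromal markers was -0.44 from the sham mean, that of 5 macrophage markers -0.70 and that of 5 proliferation genes -0.78, while 5 adipocyte markers stood at 1.28. Striated muscle markers stood at -0.30, endothelial at -0.10, epithelial at -0.04, uterine at 0.04 and mesothelial at 0.21. The proliferation gene Birc5, at 8.14 in that mouse, was close to its sham mean of 8.24. Among the stromal markers the collagens were low in it, Col1a1 at 9.95 and Col3a1 at 11.08 against sham means of 11.43 and 12.13, while Dcn, at 13.07, was the highest of the 8 mice and Lum, at 10.89, was close to its sham mean of 10.79. Among the adipocyte markers in exposed mouse 2, Fabp4 was 8.87, Adipoq 6.67 and Cidec 6.31, against sham means of 5.64, 4.81 and 5.26. Plin1 at 6.18 and Lep at 4.67 were closer to their sham means of 5.82 and 4.77. Exposed mouse 1 had a high adipocyte mean as well (1.06), with contractile genes near the sham mean. Exposed mouse 4 had the lowest proliferation mean (-0.92). In sham mouse 4 the endothelial mean was -0.35 and the proliferation mean -0.34, against -0.01 for stroma and 0.21 for macrophages. Over the groups, the stromal mean was 10.24 to 10.73 in exposed and 10.64 to 10.72 in sham mice, and the macrophage mean 7.36 to 8.31 in exposed and 7.97 to 8.26 in sham mice. The adipocyte mean was 5.07 to 6.54 in exposed and 5.10 to 5.58 in sham mice, and the proliferation mean 7.21 to 8.50 in exposed and 7.80 to 8.32 in sham mice. These lists thus spread more among exposed than among sham mice, and the SD was larger in exposed mice for 65.8% of all probe sets. The endothelial list and the list of pericytes and vascular smooth muscle had the narrower range in exposed mice. The mean of 8 epithelial markers was 8.24 to 8.80 in exposed and 8.70 to 9.07 in sham mice. That of 7 endothelial markers was 8.81 to 9.25 in exposed and 8.56 to 9.21 in sham mice, and that of 5 mesothelial markers 7.75 to 8.06 in exposed and 7.74 to 8.05 in sham mice. The part of these cells in the low values of the contractile genes was not tested.

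**Figure D5:**
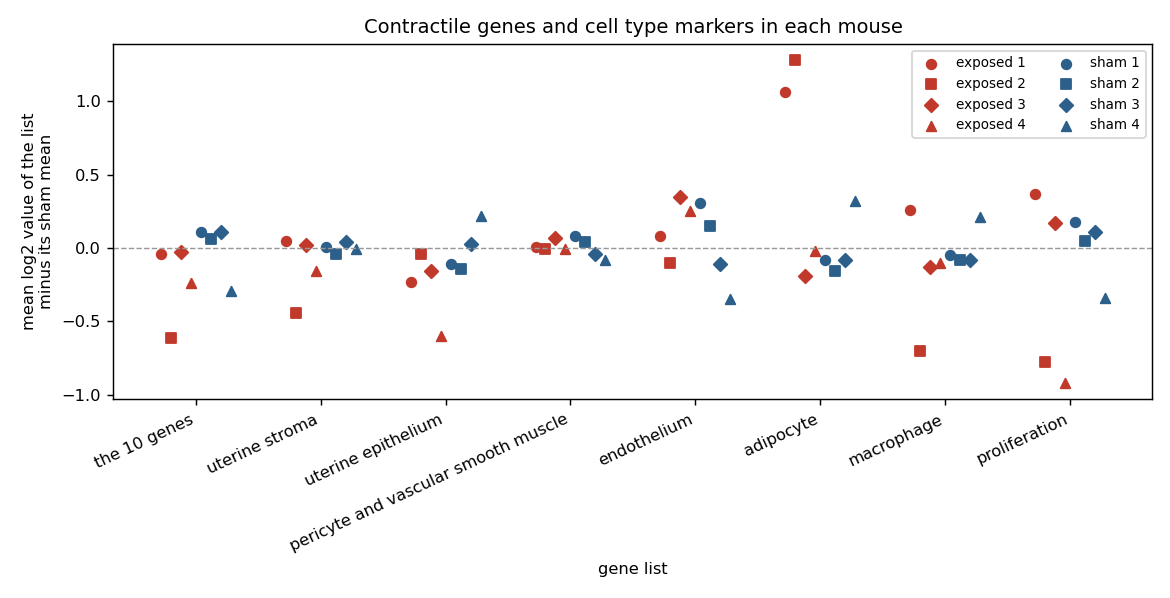
Mean log2 value of the 10 contractile genes and of 7 marker lists in each mouse (red exposed, left; blue sham, right; marker shape gives the mouse number), minus the mean of the sham mice. Exposed mouse 2 (red square) is at -0.61 for the contractile genes, -0.44 for stroma and -0.01 for pericytes and vascular smooth muscle, whose markers went both ways in it.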

How the data were processed

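The authors deposited 1 table of log2 values for 22206 probe sets and 8 arrays. The log2 scale is read from the values (2.75 to 13.6). The submitters' processing notes name Partek. Its steps, scan dates and any batches were not given in the sources used here. Sorted columns differed by at most 0.0198, so arrays had been brought to a common distribution before deposit, which removes any change shared by all genes. Symbols came from the platform annotation (19572 probe sets with 1 symbol, 2634 with none), with the highest-mean probe set kept for each gene. No background level was used, and precision is limited by the number of arrays.

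Exposed minus sham was fitted with limma 3.58.1 (lmFit, eBayes) in R 4.3.3 without covariates, adjusted over all probe sets, and the code was tested on simulated data. Mice are separate animals, per the labels. The genes, the lists and the tests were chosen with earlier results of these data known. Named were the 10 genes, the 3 of smallest p in each of 7 lists, 6 fixed genes (Oxtr, Gja1, Myocd, Srf, Mylk, Myl9), and the 5 most and 3 least alike in Pearson r over 8 mice, small RNAs, predicted genes and odorant or vomeronasal receptors left out. Cell type lists numbered 10, and their genes are named as markers. Alternatives were median centring, quantile normalization, a filter on mean level at its 25th or 50th percentile, other variance models, array weights, a replicate block, the mean of all probe sets, exact permutation, and leaving out mice. A gene that the rule names is not reported here.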

Additional observations from a re-analysis of the deposited data

Results flagged for a closer look

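Dixon's test set 1 mouse apart from the rest of its group in 4 of 70 cases (a gene in 4 mice). Of these, 3 were among the 20 cases of the contractile genes. Chance gives about 1 case in 20, but these genes share the same 8 mice. Their cases are not independent, so the count of 3 cannot be read against that rate. A further 4 of 16 cases came from genes chosen for following or opposing the contractile genes in these mice and are given as values alone. Sham mouse 4 stood apart for Actg2 (10.74, others 11.77 to 11.96) and for Des (9.97, others 10.52 to 10.62), and exposed mouse 2 for Myh11 (11.19, others 11.62 to 11.67). Hopx was low in both of these mice, at 7.03 in exposed mouse 2 (others 7.75 to 7.86) and at 7.53 in sham mouse 4 (others 8.07 to 8.14). Sham mouse 4 was also apart for S100a10 (10.10, others 10.62 to 10.70) and Scai (8.23, others 7.89 to 7.94). Lmod2, dim on every array, was 4.94 in exposed mouse 2 (others 4.86 to 4.87).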

How the results depend on the processing

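Over 21 alternatives, 0 of the 10 genes passed an adjusted p of 0.05 (lowest 0.324), and 10 of the alternatives cannot move a gene's difference. The other 11 (array weights and mice left out) share most of their mice and are not separate checks. In them, 106 of 110 differences kept their sign. The 4 that reversed were Cnn1 without exposed mouse 2 (0.001) and Acta2 (0.144), Actg2 (0.165) and Cnn1 (0.119) without exposed mice 2 and 4, a setting added afterwards. The median difference was -0.28 to -0.083 with 1 mouse left out. The count of genes at an unadjusted limma p under 0.05, 2 as reported, was 1 above the 50th percentile of level (Synm not tested there), 1 without moderation, 1 by exact permutation, 0 without exposed mice 2 and 4, and 1 to 3 with 1 mouse left out. Probe sets past adjustment numbered 0, or 0 to 1 with 1 mouse left out. At an unadjusted p under 0.05, 1203 probe sets became 796 above the 50th percentile, where fewer were tested, 607 by exact permutation, 779 without exposed mouse 2 and sham mouse 4, and 726 to 2545 with 1 mouse left out, the highest without exposed mouse 1. Gja1 reversed with array weights (-0.016), without exposed mice 2 and 4 (-0.117) and without exposed mouse 3 (-0.013), exposed mouse 4 (-0.168) or sham mouse 3 (-0.031). With 1 mouse left out, differences ran from -0.374 to 0.001 for Cnn1, -0.168 to 0.161 for Gja1 and -0.159 to 0.014 for Myl9. Myl9 reversed without exposed mouse 2 (0.014) and without exposed mice 2 and 4 (0.134). The cause was not tested.

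With the replicate number as a block, 2 of the 10 genes had an unadjusted limma p under 0.05, their median was -0.179, and 0 probe sets passed adjustment (1274 unadjusted). Whether same-numbered mice share more than a number is not stated in the sources used here. Their deviations from the mean of their group correlated at 0.08, -0.238, 0.085 and 0.075. These values cannot exclude a shared day or batch. Exposed mouse 2 correlated best with sham mouse 4 (0.435).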
